A study of Mus musculus with 12 samples.

Results

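Of 37748 genes in the count table, 21 were silent in muscle without recombined DUX4, stayed at a trace in the moderate FSHD-like model and reached a clear count only in the severe model. They were chosen by a rule on the rounded counts: a sum of at most 3 over the 6 libraries of ACTA1-MCM/+ and FLExD/+ mice, at most 10 in each of the 3 moderate libraries and at least 20 in each of the 3 severe libraries. Silent genes, those with a sum of at most 3, numbered 16650, and 93 of them had at least 20 counts in every severe library. The 21 are the part of these 93 that stayed at or under 10 counts in every moderate library, and the other 72 had gone above 10 in at least one. Since these counts chose the genes, their levels in the 4 groups are given as a description, with no test.

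RNA-seq had been performed on gastrocnemius muscle of 12 mice, 3 in each group, as polyadenylated RNA in single reads of 50 bases. ACTA1-MCM/+ mice, the controls, carry a Cre recombinase that tamoxifen (TMX) activates and that the human skeletal actin promoter confines to skeletal muscle, and FLExD/+ mice carry the inverted human DUX4 transgene, FLExDUX4, without Cre. The moderate and severe models were bi-transgenic FLExDUX4/+;MCM/+ mice that received 1 intraperitoneal injection of 5 mg/kg TMX or 2 injections of 10 mg/kg TMX on consecutive days. All mice were 13 weeks old, and TMX-treated muscle was taken at day 9. The labels list no TMX for the controls or the FLExD/+ mice, so an effect of TMX itself and of DUX4 cannot be told apart here. Recombination is mosaic and limited to myofibers, so DUX4 is induced in a fraction of the fibers only, and bi-transgenic muscle is described by the study as expressing it at a low level even before TMX.

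DUX4 is a transcription factor of the early embryo that is toxic to muscle cells when it is expressed in them, and its misexpression underlies facioscapulohumeral muscular dystrophy. Dying myofibers release signals that bring in macrophages and make satellite cells divide and fuse, so a damaged muscle holds cells, and transcripts, that a resting muscle lacks. Genes with no reads in resting muscle are in most cases the property of another tissue, such as pancreas, testis, epithelium or a resident immune cell, or are held off in adult cells by chromatin, as the INK4-ARF locus is.

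By their known roles the 21 genes fall into a few kinds. Pmaip1 encodes Noxa, a BH3-only protein that frees BAX and BAK by binding MCL1, and Cdkn2a encodes the cyclin-dependent kinase inhibitor p16-INK4a and, from another first exon, p19-ARF, which binds MDM2. Osm (oncostatin M, a cytokine of the IL-6 family), Wnt7b (a secreted Wnt ligand), Cd5l (a scavenger protein secreted by macrophages, also called AIM) and Mc4r (a melanocortin receptor of the hypothalamus) carry signals between cells, and Dusp9 (a phosphatase of ERK kinases) dampens them inside. Lama1 (the laminin alpha 1 chain of embryonic basement membranes), Cldn2 (a pore-forming claudin of tight junctions) and B3gnt7 (a glycosyltransferase) act at the cell surface and matrix. Ctrb1 (chymotrypsinogen B of the pancreas), Cpa4 (a carboxypeptidase) and Prss46 (a serine protease of the testis) are peptidases. St18 is a zinc finger transcription factor, Nxf7 a relative of the mRNA export factor NXF1, Tekt5 a filament protein of the sperm flagellum, Lman1l a relative of the cargo lectin LMAN1 and Olfr111 an olfactory receptor. The gene models 1520401A03Rik and Gm21188 are annotated as protein-coding, and Gm12408 as a long noncoding RNA. In all 20 of the 21 were annotated as protein-coding, against 62 of the 72 other silent genes with 20 or more counts in every severe library and 35.2% of the silent genes that stayed at or under 10 in the moderate model.

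Start regions of 4 genes are shown because the rest of the text returns to them, from RefSeq on GRCm38.p6, each running from 250 bases before to 50 bases after an annotated start and written 5′ to 3′ on the strand of the gene. RefSeq gave such a window for 14 of the 21 genes, 20 windows in all. Ctrb1 and Cd5l are the most highly counted of the 14, and Cdkn2a and Cpa4 were chosen after their motif matches were seen. Capitals mark a match to one of 6 motifs searched on both strands: the cell cycle element CHR (TTTGAA), the CCAAT box (CCAAT), an E2F site (TTTCCCGC), an AP-1 site (TGANTCA), a STAT site (TTCNNNGAA) and a DUX4-type core (TAANNNAAT). No matches overlap in the windows shown. The first Cdkn2a window lies at the start of the ARF transcript, chr4:89294570-89294869 on the minus strand, and the second at the start of the INK4a transcript, chr4:89282143-89282442 on the minus strand. Those of Ctrb1, Cd5l and Cpa4 lie at chr8:111690961-111691260 (minus), chr3:87357631-87357930 (plus) and chr6:30568119-30568418 (plus).
Cdkn2a, ARF start: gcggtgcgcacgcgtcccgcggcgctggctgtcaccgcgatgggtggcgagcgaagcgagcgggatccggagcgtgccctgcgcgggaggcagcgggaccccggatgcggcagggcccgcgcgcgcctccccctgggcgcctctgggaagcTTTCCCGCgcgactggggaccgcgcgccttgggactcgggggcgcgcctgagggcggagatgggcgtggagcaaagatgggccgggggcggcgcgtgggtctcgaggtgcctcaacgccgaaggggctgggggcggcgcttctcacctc
Cdkn2a, INK4a start: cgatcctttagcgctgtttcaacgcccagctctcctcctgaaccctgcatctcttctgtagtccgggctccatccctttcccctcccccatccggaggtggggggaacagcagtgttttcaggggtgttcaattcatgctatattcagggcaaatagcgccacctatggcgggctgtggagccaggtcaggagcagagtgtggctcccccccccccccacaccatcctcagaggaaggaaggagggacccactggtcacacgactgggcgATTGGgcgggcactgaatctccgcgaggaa
Ctrb1: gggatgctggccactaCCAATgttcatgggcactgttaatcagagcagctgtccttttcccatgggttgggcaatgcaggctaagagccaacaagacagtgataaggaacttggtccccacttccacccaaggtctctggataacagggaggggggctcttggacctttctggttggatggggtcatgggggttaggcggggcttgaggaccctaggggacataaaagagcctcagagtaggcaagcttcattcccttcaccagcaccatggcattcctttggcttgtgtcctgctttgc
Cd5l: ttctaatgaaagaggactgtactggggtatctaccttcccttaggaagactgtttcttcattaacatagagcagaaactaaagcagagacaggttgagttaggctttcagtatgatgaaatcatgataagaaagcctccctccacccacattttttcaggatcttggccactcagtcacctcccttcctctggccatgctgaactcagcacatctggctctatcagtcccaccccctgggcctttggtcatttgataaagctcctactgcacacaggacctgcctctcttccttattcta
Cpa4: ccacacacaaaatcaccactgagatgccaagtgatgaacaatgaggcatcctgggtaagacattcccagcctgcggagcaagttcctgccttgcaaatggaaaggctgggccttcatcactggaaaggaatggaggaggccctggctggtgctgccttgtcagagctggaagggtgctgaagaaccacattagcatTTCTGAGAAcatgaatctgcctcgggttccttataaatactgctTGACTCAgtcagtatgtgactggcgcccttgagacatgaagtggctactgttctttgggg

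The E2F letters stood in the ARF window of Cdkn2a, and among all 27025 genes with a window 1.24% held them. The AP-1 letters and the STAT letters both stood in the Cpa4 window, close before its start, where 8.97% and 9.55% of all genes held them. A CCAAT box was found in 5 of the 14 genes (Cdkn2a at its INK4a start, Ctrb1, Gm12408, Olfr111 and Prss46), against 41.1% of all genes. The CHR letters and the DUX4-type core were found in 0 of the 14, against 20.2% and 14% of all genes, and no motif was shared by the windows as a group. The GC content of the 20 windows ranged from 38.7% (Olfr111) to 77.0% (the ARF start) with a median of 49.7%, and the median of all windows was 52.7%. A match describes letters in this window and not the binding of a factor, which was not measured.

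In the 6 libraries of ACTA1-MCM/+ and FLExD/+ mice the 21 genes were at or next to 0. Their summed counts were 2 to 6 per library in controls and 4 to 6 in FLExD/+ mice, out of totals of 23796902 to 29136403 counts over all 12 libraries, and the largest single value was 2. Cd5l, St18, Prss46, Olfr111 and Gm12408 had 0 counts in all 6. In the moderate model the summed counts were 91 to 133, each gene had at least 1 count in every library, and in the severe model they were 740 to 1096. By the rule itself the moderate and severe counts overlapped for none of the 21 genes. Of all 16680 genes tested, 17.7% were called higher in the severe than in the moderate model and 18.8% lower by edgeR's quasi-likelihood test (called at a Benjamini-Hochberg adjusted p under 0.05 with a log2 fold change of 0.5 or more in size), and nothing is read from setting the 21 beside these shares. In bulk muscle, fewer cells of a type and less RNA per cell cannot be told apart.

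**Figure D1:**
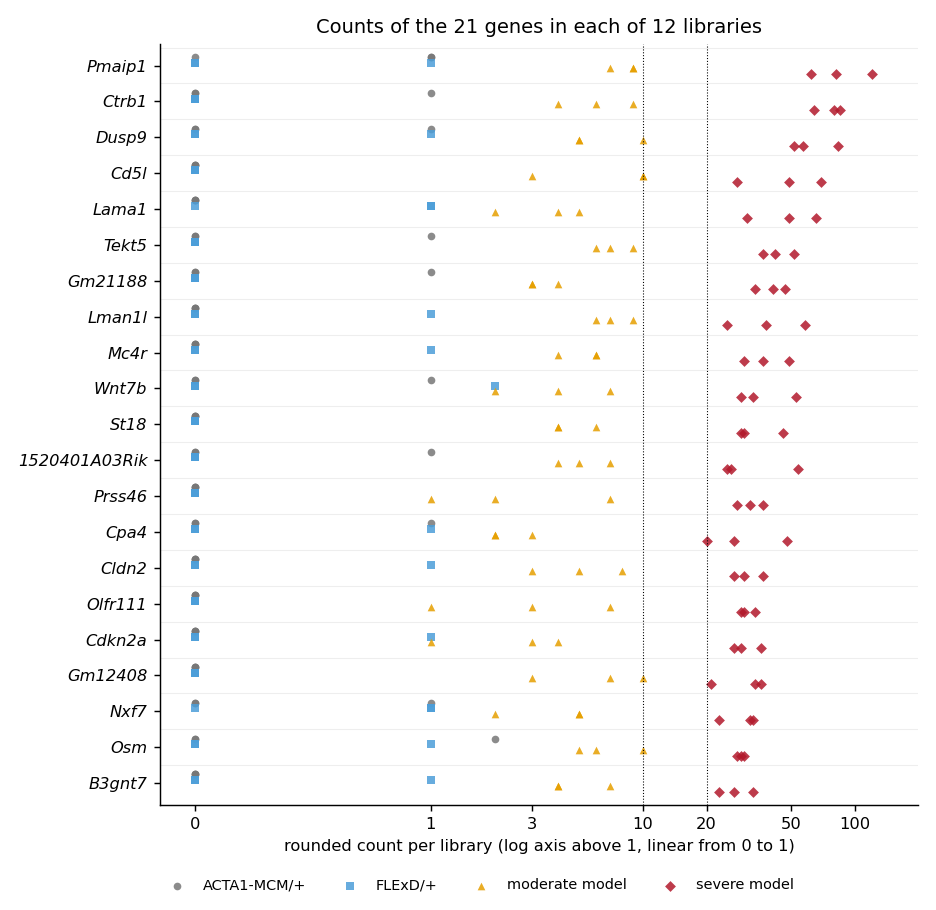
Rounded counts of each of the 21 genes (rows, ordered by mean severe level) in the 12 libraries, on an axis that is logarithmic above 1 and linear from 0 to 1; each point is 1 mouse and dotted lines mark the limits of 10 and 20 in the rule. Control and FLExD/+ points sit at 0 to 2, moderate points at 1 to 10 and severe points at 20 to 121.

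Among the genes of cell death and growth arrest, Pmaip1 was the most highly counted of the 21. Its counts were 1, 1 and 0 in control mice 1127, 1246 and 1349, 0, 0 and 1 in FLExD/+ mice 1358, 1367 and 1378, 9, 7 and 9 in moderate mice 1236, 1308 and 1331, and 121, 62 and 82 in severe mice 1047, 1066 and 1079. Severe mouse 1047 stood highest, and the lowest severe mouse was still well above every moderate mouse. As counts per 1e6 (CPM) on TMM-adjusted library sizes this was 2.06 ± 0.636 (SD, n = 3) in the severe and 0.273 ± 0.0278 in the moderate model, a ratio of 7.53. Against a floor of 3 counts per control library the severe level was at least 14-fold higher, the largest such bound among the 21.

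Cdkn2a, whose values were looked up outside the naming rule because of its role, was at 0 in 5 of the 6 libraries without recombined DUX4 and at 1 in FLExD/+ mouse 1378. It had 1, 3 and 4 counts in the moderate mice and 36, 29 and 27 in the severe mice, listed from here on in the same order of mice. The severe mice lay close together (0.716 ± 0.0843 CPM) and 8.09 times above the moderate mean. Both products of the locus share their downstream exons, and counts per gene do not tell p16-INK4a from p19-ARF transcripts.

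Of the signalling genes, Dusp9 had 10, 5 and 5 counts in the moderate and 83, 52 and 57 in the severe mice (1.49 ± 0.337 CPM, 6.87 times the moderate level). Cd5l had 10, 10 and 3 counts in the moderate and 69, 28 and 49 in the severe mice, so that moderate mouse 1331 and severe mouse 1066 were low within their groups. Its severe level was 1.13 ± 0.450 CPM, 4.48 times the moderate level, and its CV over the severe mice was among the largest of the 21. Wnt7b had 7, 4 and 2 counts against 53, 33 and 29. Mc4r had 6, 4 and 6 counts against 49, 37 and 30. These came to 6.31 and 5.17 times the moderate CPM, and severe mouse 1047 was highest for both. Osm had 10, 6 and 5 counts in the moderate and 29, 30 and 28 in the severe mice, the most even severe counts of the 21 (0.679 ± 0.0270 CPM) and, at 2.97 times, the lowest severe to moderate ratio.

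At the matrix and cell surface, Lama1 had 4, 2 and 5 counts in the moderate and 66, 49 and 31 in the severe mice, a ratio of 9.47 with the 3 severe mice well apart (1.13 ± 0.370 CPM). Per kilobase of exon it was nonetheless the lowest of the 21, at 0.117 CPM per kb, as it was in TPM. Cldn2 and B3gnt7 rested on fewer reads, with 27 to 37 and 23 to 33 counts in the severe mice against 3 to 8 and 4 to 7 in the moderate mice. Their severe levels were 0.732 ± 0.0988 and 0.645 ± 0.0945 CPM.

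Of the peptidases, Ctrb1 had 6, 4 and 9 counts in the moderate and 85, 64 and 80 in the severe mice (1.79 ± 0.240 CPM, a ratio of 8.63). Per kilobase of exon, where levels can be compared between genes, it was the highest of the 21 at 2.03 CPM per kb, ahead of Pmaip1 at 0.753. This order holds for length as the union of annotated exons, and the deposited TPM put Pmaip1 first, at a severe mean of 7.43 against 4.60 for Ctrb1. Cpa4 had 3, 2 and 2 counts in the moderate and 48, 27 and 20 in the severe mice. This was the highest ratio of the 21, 9.62, on a wide severe spread (0.734 ± 0.311 CPM); its count of 20 in mouse 1079 lay on the limit of the rule. Prss46 had 7, 1 and 2 counts against 37, 32 and 28.

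Among the remaining genes, Tekt5 had 9, 6 and 7 counts in the moderate and 52, 37 and 42 in the severe mice, and Lman1l had 9, 7 and 6 against 58, 25 and 38. St18 had 4, 4 and 6 counts against 46, 30 and 29, and 1520401A03Rik had 5, 7 and 4 against 54, 26 and 25. In all 4 the severe mouse 1047 was highest. Gm21188 had 3, 3 and 4 counts against 41, 47 and 34, with mouse 1066 highest. Olfr111 (29 to 34 severe counts), Gm12408 (21 to 36) and Nxf7 (23 to 33) made up the rest, over 1 to 7, 3 to 10 and 2 to 5 counts in the moderate mice.

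Over the 21 genes the ratio of severe to moderate CPM ran from 2.97 to 9.62 with a median of 5.32, and the mean severe level from 0.645 to 2.06 CPM with a median of 0.815. On library totals alone, without TMM factors, the ratios were larger, 4.78 to 15.7, since the factors were 1.06 to 1.13 in the moderate and 1.69 to 1.87 in the severe libraries, against 0.706 to 0.760 in the libraries without recombined DUX4. Applied to counts scaled by TMM-adjusted library size, the same limits left 6 genes, all among the 21 (Dusp9, Ctrb1, Lama1, Tekt5, Mc4r and Gm21188). The lower bound on the severe level over the control floor ran from 4.38-fold (B3gnt7) to 14-fold (Pmaip1). Dividing the lowest severe by the highest moderate CPM gave 1.57 for Gm12408 and 6.29 for Gm21188, the ends of that range.

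The other 72 silent genes with 20 or more counts in every severe library differed in what the rule had fixed. Their severe to moderate ratio had a median of 1.38 and ran from 0.203 to 8.01, and 26 of the 72 were lower in the severe than in the moderate model. Their severe level was higher than that of the 21, with a median of 1.46 CPM. Near the limits, Nxf7, Osm and Pmaip1 had a sum of 3 in the libraries without recombined DUX4, and Gm13398 and Serpina3g were left out with 4 and BC051019 with 5. At the moderate limit, Cd5l, Dusp9, Gm12408 and Osm reached 10 in 1 mouse or more, and Ccl3 and Gm14635 were left out with 12 and Dnahc12 with 13. At the severe limit, Cpa4, Gm12408 and B3gnt7 had lowest counts of 20, 21 and 23, and Raet1d and Sohlh2 were left out with 19 and Bnipl with 18.

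**Figure D2:**
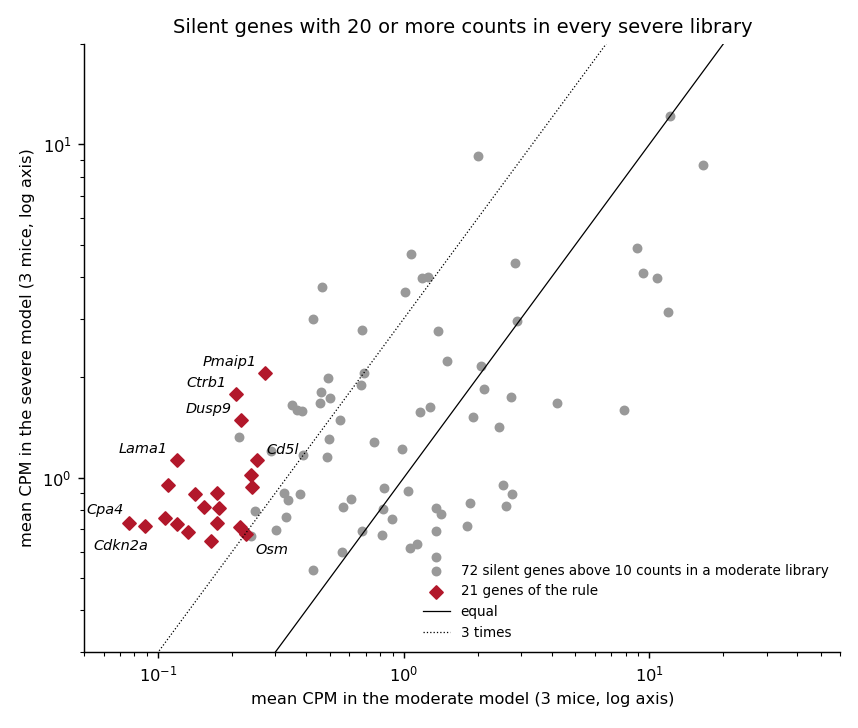
Mean CPM in the moderate model (x axis) against the severe model (y axis), 3 mice each and both axes logarithmic, for the 93 silent genes with 20 or more counts in every severe library; lines mark equal levels and a ratio of 3. The 21 genes (diamonds) sit at the left by their selection, at ratios of 2.97 to 9.62, and 26 of the other 72 lie below the line of equal levels.

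Within the severe group the 21 genes did not share 1 order of mice, but mouse 1047 was highest for 15 of them, and mice 1066 and 1079 for 3 each. Among 2225 tested genes in the same range of severe CPM, mouse 1047 was highest for 36.9%. The summed CPM of the 21 was 24.7 in mouse 1047, 17.5 in mouse 1066 and 18.8 in mouse 1079. The CV over the severe mice ran from 3.98% (Osm) to 43.3% (1520401A03Rik) with a median of 21.3%, against 18.7% over the 2225 genes. In the moderate group mice 1236 and 1331 were highest for 9 genes each and mouse 1308 for 3, on counts of 10 or less.

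On TMM-adjusted library sizes, markers of some cell types moved with the 21 genes between the groups, and those of others did not. All 9 macrophage and monocyte markers rose in severe against control muscle, and their summed level was 89.8 to 114 CPM in controls, 443 to 550 in the moderate and 968 to 1037 in the severe model. Of 8 markers of satellite cells and myoblasts 7 rose, from 14.3 to 16.2 CPM in controls to 160 to 221 in the severe model, and all 8 myofiber markers fell, from 130694 to 177242 CPM to 8257 to 14954 CPM. The fibroblast sum rose from 656 to 1567 CPM to 3842 to 4951 CPM, with 2 of 6 markers higher and 1 lower. The dendritic cell sum was 12.5 to 13.4 CPM in controls and 12.3 to 15.7 CPM in the severe model, and the T and NK cell sum fell from 55.9 to 60.8 CPM to 29.2 to 50.1 CPM. Of 6 markers each, 5 endothelial, 4 adipocyte and 4 Schwann cell markers were lower, and 1 Schwann cell marker was higher. All of these levels are relative to the bulk of genes, as TMM factors were 0.706 to 0.724 in control and 1.69 to 1.87 in severe libraries. The falls of the T and NK cell and endothelial sums were smaller than this difference and turned to rises on library totals. There the dendritic cell sum rose too, and the myofiber sum still fell. Severe mouse 1047 had the highest macrophage, satellite cell, fibroblast and neutrophil sums and the lowest myofiber sum of the 3. The part of these cell types in the 21 genes was not tested. As background, 32.8% of all tested genes were called higher and 27.9% lower in severe against control muscle.

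Markers of tissues that express some of the 21 genes were near 0 for pancreas and not for the other lists. For exocrine pancreas, home of Ctrb1, Cela2a and Prss2 had 1 count in 1 moderate library and 0 elsewhere, Amy2b had 0 in all 12 libraries and Pnlip had at most 1, while Cela1 rose from 0.348 ± 0.142 to 0.863 ± 0.251 CPM between the moderate and severe model. The summed level of the 7 pancreas markers was 0.896 to 1.47 CPM in the severe mice, where Ctrb1 alone was at 1.51 to 1.93 CPM. The part of such cells in the level of Ctrb1 was not tested. For epithelium, where Cldn2 is a marker of leaky junctions, Krt5 and Krt14 were at 0 in all libraries and Epcam had at most 1 count in any moderate or severe library. The sum of the 9 epithelial markers was nonetheless 7.56 to 12.7 CPM in controls, 38.7 to 41.8 CPM in moderate and 16.7 to 21.7 CPM in severe mice, most of it Trp63, and of 4 tested markers Trp63 and Krt18 were higher and Krt19 lower in severe against control muscle. The part of such cells in the level of Cldn2 was not tested. For neutrophils, a source of Osm, Ly6g was at 0 in all libraries and Mpo had at most 1 count, and the sum of the 12 markers was 4.70 to 8.87 CPM in moderate and 11.7 to 13.7 CPM in severe muscle, with 5 of 6 tested markers higher than in controls. The mast cell sum did not separate severe from control muscle with TMM, at 10.9 to 15.3 CPM in controls and 13.3 to 18.6 CPM in the severe model. On library totals every severe mouse lay above every control mouse for this sum.

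**Figure D3:**
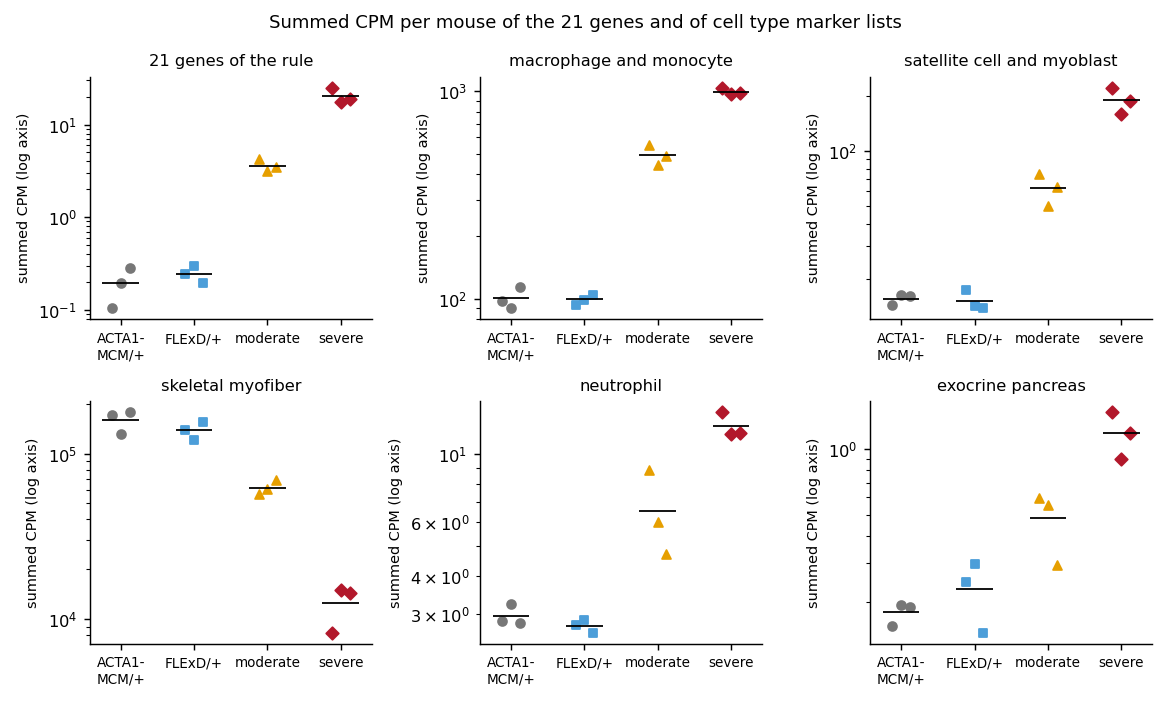
Summed CPM per mouse (log axes) of the 21 genes and of 5 cell type marker lists in the 4 groups; points are mice and horizontal lines are means of 3. The 21 genes sum to 3.14 to 4.20 CPM in moderate and 17.5 to 24.7 CPM in severe muscle, while the myofiber sum falls to 8257 to 14954 CPM.

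To place the 21 genes among their relatives and partners, 11 lists of genes with related roles were drawn up after the members were known, and their genes outside the rule were tested in the fit across all genes. Of 155 tested partners, 70 were higher and 45 lower in severe against control muscle, 60 and 29 in moderate against control muscle, and 37 and 27 in severe against moderate muscle. In percent, 45.2, 38.7 and 23.9 of the partners were higher, beside 32.8% of all tested genes in the first comparison, 24.4% in the second (with 17.0% lower) and 17.7% in the third. The direction of these counts depended on scaling. On library totals alone, over all 16680 genes, the median log2 change was 1.39, 0.65 and 0.71 in the 3 comparisons, where TMM gave 0.08, 0.04 and 0.02, and the 155 partners were then 116 higher and 9 lower in severe against control and 89 higher and 9 lower in severe against moderate muscle. On that scaling 75.4% and 57.9% of all tested genes were higher in these comparisons, so the partners lay near the background. Fold changes below are on the log2 scale with TMM, so they are relative to the bulk of genes, and for genes called lower the text says where the sign turns on library totals.

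Around Pmaip1, 12 of 18 tested BCL2 family members and p53 relatives were higher and 1 lower in severe against control muscle (17 and 0 on library totals). Against the moderate model 6 were higher and 2 lower. The pore former Bok rose by 1.38 ± 0.16 (SE), from 3.34 ± 0.145 to 8.71 ± 1.36 CPM (edgeR adjusted p = 1.2e-05). The BH3-only genes Bcl2l11 (Bim), Bid and Bmf rose by 1.02 ± 0.16, 0.95 ± 0.21 and 0.85 ± 0.18 (edgeR adjusted p = 0.00013, 0.002 and 0.0016), which belong to the same class as Noxa. Bax was at 16.6 ± 1.07 CPM against 14.5 ± 1.92 in the moderate model and Trp53 at 17.7 ± 1.48 against 14.2 ± 2.09, neither passing the test between the models. Mcl1, the partner of Noxa, was at 128 ± 0.901 CPM in severe, 159 ± 1.51 in moderate and 157 ± 27.8 in control muscle and was not called in any of the 3 comparisons. The survival gene Bcl2l2 was called lower in the severe than in the moderate model (-0.59 ± 0.08), with the sign turning to 0.11 on library totals.

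Around Cdkn2a, 11 of 20 genes of the INK4-ARF and RB pathway were higher and 4 lower in severe against control muscle (17 and 0 on library totals), and 8 higher and 1 lower against the moderate model. The kinases that p16-INK4a inhibits were among them: Cdk4 rose from 29.6 ± 1.61 to 46.4 ± 3.53 CPM and Cdk6 from 3.84 ± 0.666 to 7.18 ± 1.62 CPM between the models (edgeR adjusted p = 4.9e-05 and 0.0016). Rbl1 (p107) rose by 1.28 ± 0.12, E2f1 by 0.64 ± 0.18 and Ezh2, a Polycomb methyltransferase known to hold the locus silent, by 0.95 ± 0.15 (edgeR adjusted p = 2.8e-06, 0.0079 and 0.00015). Rb1 itself was called lower between the models (-0.53 ± 0.10, 0.16 on library totals), a call lost without moderate mouse 1331 or severe mouse 1047, and it was higher than in controls in both models. Cdkn2b (p15-INK4b), 11646 bp from Cdkn2a on chromosome 4, was at 0.458 ± 0.0684 CPM in control, 0.425 ± 0.187 in moderate and 0.701 ± 0.0790 in severe muscle and did not pass the test in any of the 3 comparisons.

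Of the IL-6 family around Osm, 7 of 14 genes were higher and 5 lower in severe against control muscle (10 and 1 on library totals), and 2 and 2 in severe against moderate. The receptor Osmr rose against controls by 1.15 ± 0.11 to 24.7 ± 0.572 CPM and was not called between the models (0.31 ± 0.11). Its partner chain Il6st (gp130) was abundant in every group, at 229 ± 13.4 CPM in control and 162 ± 13.9 CPM in severe muscle, and Socs3, a target of this pathway, was at 4.32 ± 1.75 CPM in moderate and 4.82 ± 1.25 CPM in severe muscle. The ligand Clcf1 rose between the models by 1.36 ± 0.22 (edgeR adjusted p = 0.00021), and Cntfr fell by 1.97 on the log2 scale (edgeR adjusted p = 4.6e-05). Lif, 16531 bp from Osm on chromosome 11, had at most 8 counts in any library. In the list of inflammatory cytokines, which holds Osm, only 6 of the 23 other genes passed the filter on low counts, and the rest were not tested. All 6 were higher in severe against control muscle. Between the models 2, Il1rn and Il33, were higher, Il1rn by 1.95 ± 0.29 to 8.51 ± 1.77 CPM (edgeR adjusted p = 0.00011). The Il33 call was lost when any 1 moderate or severe mouse was left out.

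Around Cd5l, 7 of 14 tested scavenger and efferocytosis receptors were higher and 4 lower in severe against control muscle (11 and 1 on library totals), and 6 and 2 against the moderate model. Those that rose between the models are macrophage receptors: Vsig4 by 1.72 ± 0.23 to 3.76 ± 0.183 CPM, Msr1 by 1.56 ± 0.23 to 31.2 ± 5.16 CPM, Mertk by 1.33 ± 0.17, Stab1 by 1.29 ± 0.13, Cd163 by 0.94 ± 0.22, and Marco, which was at 0.279 ± 0.0737 CPM in the severe model and at 0 in every control library. With 0 in every control library, Marco could pass the filter on low counts only through other groups, so no p-value is given for it. For the other receptors the edgeR adjusted p-values were 0.0037 or less. Nr1h3 (LXR alpha), known to drive Cd5l in macrophages, was at 6.58 ± 0.509 CPM in the severe, 6.70 ± 0.130 in the moderate and 13.1 ± 1.52 CPM in the control mice, and the log2 fold change of severe over control muscle, -0.99 with TMM, turned to 0.31 on library totals. The next gene on chromosome 3, Fcrls, a receptor of tissue macrophages 94143 bp away, rose from 12.7 ± 1.87 to 30.7 ± 3.99 CPM (1.28 ± 0.13, edgeR adjusted p = 4.1e-06).

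Wnt ligands and receptors, the relatives of Wnt7b, went both ways: 10 of 30 were higher and 13 lower in severe against control muscle (16 and 4 on library totals), and 5 and 8 against the moderate model (12 and 2). Wnt10a rose from 0.163 ± 0.0257 to 1.00 ± 0.129 CPM between the models (2.58 ± 0.44, edgeR adjusted p = 0.00027) and Fzd3 and Fzd5 by 1.46 ± 0.24 and 1.09 ± 0.19. Wnt4 fell from 7.08 ± 0.508 to 2.61 ± 0.472 CPM and Fzd9 from 3.70 ± 1.21 to 0.873 ± 0.225 CPM, in the same direction on library totals. Wnt7a, the closest relative, had at most 1 count in any library. Axin2, a common readout of the beta-catenin branch, was at 7.37 ± 0.938 CPM in control, 2.65 ± 0.723 in moderate and 2.0 ± 0.120 in severe muscle.

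Laminin chains and receptors, the setting of Lama1, were 7 higher and 3 lower of 18 in severe against control muscle (15 and 1 on library totals), with 2 and 2 against the moderate model. The adult alpha chain Lama2 was at 125 ± 4.34 CPM in the severe and 119 ± 9.88 CPM in the moderate model, the receptor subunit Itga7 rose from 46.9 ± 4.98 to 115 ± 16.5 CPM, and Lama5 from 18.2 ± 0.644 to 30.8 ± 6.44 CPM (edgeR adjusted p = 1.8e-06 and 0.00042). Of the MAP kinase phosphatases, 4 of 9 relatives of Dusp9 were higher and 5 lower in severe against control muscle (6 and 0 on library totals). Dusp2 and Dusp5 rose between the models by 1.09 each (SE 0.27 and 0.34, edgeR adjusted p = 0.0046 and 0.017), the Dusp5 call being lost without moderate mouse 1331 or severe mouse 1047 or 1066. Dusp1 fell by 1.45 and Dusp8 by 1.46 on the log2 scale (edgeR adjusted p = 0.0026 and 0.00014), also lower between the models on library totals. The list of stress transcription factors and signalling holds Dusp9. Of its 28 others, 17 were higher and 4 lower in severe against control muscle. Against the moderate model 7 were higher and 3 lower, Sox11 rising the most, from 1.08 ± 0.299 to 4.71 ± 1.06 CPM. Sox11 was silent in muscle without recombined DUX4, so its rise over controls was bound to follow.

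Claudins and tight junction genes were 5 higher and 4 lower of 11 in severe against control muscle (8 and 0 on library totals) and 2 and 4 against the moderate model. Cldn1 fell by 1.74 and Cldn19 by 2.94 on the log2 scale (edgeR adjusted p = 0.0092 and 0.0066), also lower on library totals, and the Cldn1 call was lost on library totals and without moderate mouse 1308. In the melanocortin system only 3 relatives of Mc4r were tested, and Mc5r fell by 2.41 between the models (edgeR adjusted p = 0.00037). The ligand gene Pomc had at most 9 counts in any library and Agrp, an antagonist of the receptor, was at 0.380 ± 0.0830 CPM in the severe model. Of 13 relatives of B3gnt7, Lman1l, Nxf7, St18 and Tekt5, 6 were higher and 1 lower in severe against control muscle (12 and 0 on library totals) and 3 and 1 against the moderate model. B3gnt5 rose from 2.50 ± 0.889 to 11.9 ± 1.59 CPM between the models (2.24 ± 0.23, edgeR adjusted p = 4.9e-06) and B3gnt8 by 1.03 ± 0.19. Nxf1, the general export factor, was at 33.4 ± 0.910 CPM in the severe and 30.5 ± 1.04 CPM in the moderate model.

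Among peptidases, the list that holds Ctrb1 has 36 genes outside the rule, of which 16 passed the filter on low counts. Of these 16, 15 were higher in severe against control muscle and none was lower, and 6 were higher and 3 lower against the moderate model. Mmp13, Ctsj and Cts6 were silent in muscle without recombined DUX4, so for them a rise over controls was bound to follow and is no result. The matrix metalloproteinase Mmp12 rose between the models by 1.38 ± 0.16 (edgeR adjusted p = 2.1e-05). Another, Mmp13, rose by 2.58 ± 0.51 from a moderate mean of 0.214 CPM. At this level Mmp13 could pass the filter on low counts only through its severe counts, so no p-value is given for it. Its call is among the 6 counted as higher against the moderate model, and nothing is read from it. Klk1 fell by 2.77, Ctsj by 1.33 and Cts6 by 1.42 on the log2 scale between the models, the calls of Ctsj and Cts6 being lost on library totals. Of 6 tested carboxypeptidases and serine peptidases related to Ctrb1, Cpa4 and Prss46, 2 were higher and 3 lower in severe against control muscle (4 and 0 on library totals) and 1 and 2 against the moderate model. Of the untested, Cpa1 and Cpa5 had at most 10 and 7 counts in any library, fewer than the 20 to 48 of Cpa4 in the severe mice. Prss45 and Prss50, the neighbours of Prss46, had at most 1 and 5.

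**Figure D4:**
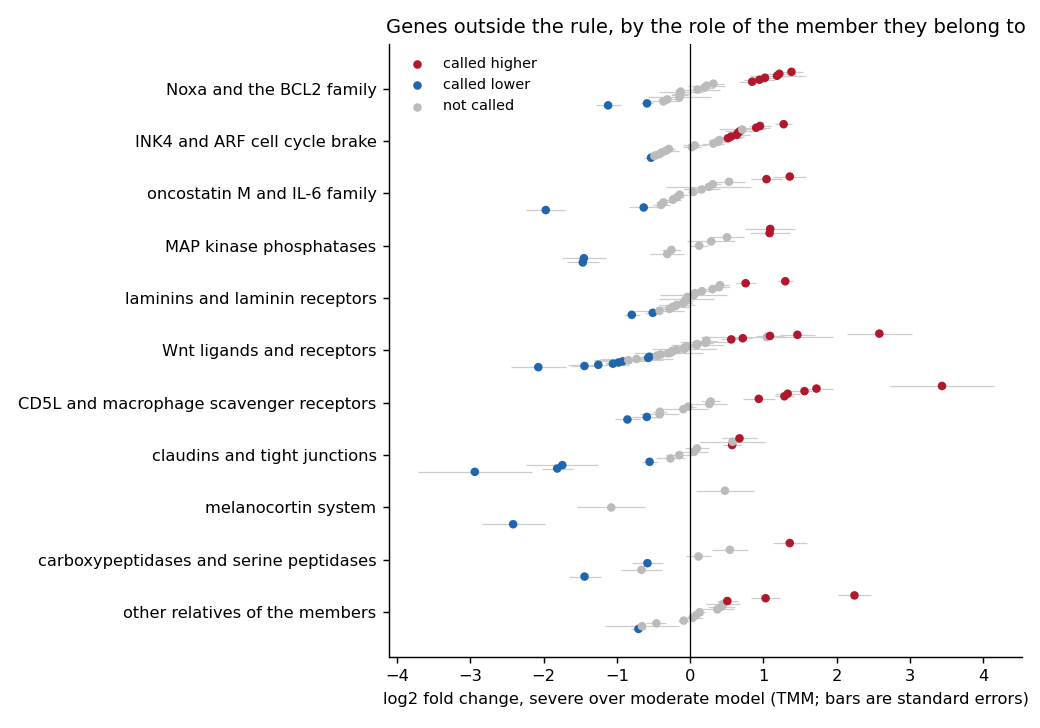
Log2 fold change of the severe over the moderate model with TMM for tested genes outside the rule, by the role of the member they relate to; points are genes, horizontal bars standard errors and colours the call. Of 155 genes 37 were called higher and 27 lower, with Marco and Wnt10a at the right and Cldn19, Mc5r and Fzd9 at the left.

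Of the 21 genes 3 lay on X, beside 4 of the other 72 silent genes and 6.91% of all annotated genes in the count table, and nothing is read from this count. In the set 1 pair lay within 1 Mb of each other: Pmaip1 and Mc4r, 392139 bp apart. Of the nearest annotated genes on either side within 100 kb, 15 of 37 passed the filter on low counts. In severe against control muscle 10 of the 15 were higher and 4 lower, in moderate against control muscle 6 and 3, and in severe against moderate muscle 9 and 3. Of all tested genes 32.8%, 24.4% and 17.7% were higher in these comparisons. On library totals the 15 were 12 higher and 2 lower, 7 and 1, and 11 and 2, beside 75.4%, 52.6% and 57.9% of all tested genes higher. Higher between the models besides Fcrls were Pkmyt1 beside 1520401A03Rik (a kinase that restrains CDK1, from 1.39 ± 0.378 to 3.38 ± 0.479 CPM), Morc4 beside Cldn2 (from 16.6 ± 1.09 to 28.4 ± 0.906 CPM), Csk beside Lman1l (from 9.16 ± 0.934 to 16.9 ± 3.39 CPM), Arhgap28 beside Lama1 (from 4.32 ± 0.650 to 11.5 ± 1.15 CPM) and Bcar1 beside Ctrb1 (from 7.68 ± 1.01 to 14.4 ± 1.91 CPM). Emp2 beside Tekt5 was called higher with all mice and not without severe mouse 1047, 1066 or 1079 or moderate mouse 1308 or 1331. Olfr112 beside Olfr111 and AC238811.1 beside Gm21188 were at 0.456 ± 0.183 and 0.607 ± 0.393 CPM in the severe model, and reads can be shared between such members of a multigene family. Both were called higher, but at 0 and 0.0161 CPM in controls they passed the filter only through their severe counts. They are among the 10 and the 9 neighbours counted as higher in severe muscle above, and nothing is read from their calls. On the other side of the threshold, Atp2b3 and Pnck, both beside Dusp9, and Lrrc30 beside Lama1 were called lower in severe than in moderate muscle, with log2 fold changes of -1.70 ± 0.24, -0.95 ± 0.26 and -1.89 ± 0.45, also below 0 on library totals, where the Pnck call was lost, so genes next to a member moved either way.

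The wider programme of the severe muscle was described with 14 lists of pathway genes, chosen with earlier results of these data known. Nothing is therefore read from setting their shares beside those of all tested genes. Some listed genes, such as Mmp13, Ctsj, Cts6 and Sox11, were silent in muscle without recombined DUX4. For these and any other silent gene on the lists a rise over controls was bound to follow, and the counts over controls below include such genes. The lists held 388 genes outside the rule, 232 of them tested. In severe against control muscle 190 were higher and 16 lower, in moderate against control muscle 174 and 10, and in severe against moderate muscle 130 and 22, or 56.0% higher beside the 17.7% of all tested genes. On library totals alone the last became 168 and 5, beside 57.9% of all tested genes higher. The lists differed in this. Of 60 kinetochore and spindle genes 58 were higher in the severe than in the moderate model and none was lower, and of 23 genes of homologous recombination and meiosis 17 were higher and none lower. Chemokines and C-type lectins of myeloid cells were 13 higher and 2 lower of 19, and neuronal and developmental cell-surface genes 10 and 2 of 15. In the remaining lists, other than those holding a member, at most 5 genes were higher: 5 and 4 lower of 15 liver and gut enzymes, 3 and 1 of 7 in the IL-10 and IL-22 system, 3 and 2 of 15 in the EGF family, 2 and 2 of 9 neuropeptide genes, 2 and 2 of 9 secretory epithelium genes, 1 and 1 of 7 keratins and 1 and 0 of 4 DUX4 and cleavage-stage genes. These small counts depended on scaling, and on library totals they were 8 and 0 for liver and gut enzymes, 6 and 0 for the IL-10 and IL-22 system, 7 and 1 for the EGF family, 3 and 0 for neuropeptide genes, 5 and 0 for secretory epithelium genes, 4 and 1 for keratins and 3 and 0 for DUX4 and cleavage-stage genes.

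The counts do not tell close copies or overlapping genes apart in every case. Expected counts that were not whole, which arise when reads are shared with another gene or transcript, were found for Nxf7, Olfr111 and Gm21188, whose levels are therefore uncertain, and the other 18 genes had whole counts in all 12 libraries. Wnt7b, Cpa4 and Gm21188 overlap the annotated genes AC115763.1, Gm13781 and U6, which were at 0.133 ± 0.0899, 0.0542 ± 0.0260 and 0.162 ± 0.0777 CPM in the severe model. The library protocol states no strand, so reads in such an overlap could belong to either gene.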

How the data were processed

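Polyadenylated RNA of gastrocnemius muscle had been sequenced from 12 mice, 3 in each of 4 groups taken from the labels. The authors trimmed the reads, aligned them to mm10 with RSEM 1.2.4 calling Bowtie and, for the remainder, TopHat2 2.0.8b, and deposited expected counts per gene and TPM values. Strandedness is not given in the sources used here. The members and gene lists were chosen with earlier results of these data known, and the role lists after the members themselves were known.

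The rule was applied to the deposited expected counts after rounding. For genes outside the rule, all 12 libraries were fitted with edgeR 4.0.16 in R 4.3.3 as 4 groups, with TMM factors, the low-count filter of filterByExpr and the robust quasi-likelihood test, over 16680 genes. A gene was called at a Benjamini-Hochberg adjusted p under 0.05 with a log2 fold change of 0.5 or more in size. The p-values measure the spread between mice. CPM values use TMM-adjusted library sizes, and 3 counts per library served as the floor, 0.0676 to 0.155 CPM, which covers counting error only. All 21 members passed the filter, but only through their severe counts, and their fitted values were not used. Alternatives were median-of-ratios factors, library totals alone, DESeq2 1.42.0, limma 3.58.1 on log2(TPM + 1) of the deposited TPM, other filters and thresholds, and each mouse left out. Gene positions came from GENCODE M21.

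Values per library were given for the 12 members with the highest severe CPM, members on a pathway list and neighbouring members. In lists holding a member, partners and up to 6 called genes by size of change and up to 3 abundant genes without a call were named. Cdkn2a, Cpa4, Prss46 and some partners were named after their values were seen.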

Additional observations from a re-analysis of the deposited data

How the results depend on the processing

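The number of genes meeting the rule (21) depended on its limits. It was 5 with a sum of 0 in the libraries without recombined DUX4, 5 and 40 with a moderate limit of 5 and 20, 64 and 3 with a severe limit of 10 and 50, and 6 on counts scaled by TMM-adjusted library size. Leaving out each mouse gave 21 to 31 genes. This count could not fall below 21, since leaving out a mouse only relaxes the limits.

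Role partners called higher numbered 70, 60 and 37 in severe against control, moderate against control and severe against moderate muscle. On library totals alone they numbered 116, 93 and 89, with limma on log2(TPM + 1) 106 and 82 in the first and last of these, and with calls limited to log2 changes of 1 or more in size they numbered 21 in the last. Alternatives for these partners were chosen after seeing the data. Neighbouring genes called higher numbered 17 in place of 10 in severe against control muscle with no filter on low counts, and 5 in place of 9 in severe against moderate muscle with calls limited to log2 changes of 1 or more in size. The cause was not tested.

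With each mouse left out, role partners numbered 68 to 71, 58 to 62 and 30 to 39 in the 3 comparisons, neighbours 10 to 12, 6 to 6 and 8 to 11, and pathway genes 187 to 194, 165 to 175 and 120 to 131. Of 89 other alternatives over 10 results, 75 stayed within 1.5 times the value reported. No paired analysis was possible because the groups share no mouse numbers. Moderate counts of 1 to 10 per gene limit every severe to moderate ratio.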
